A study of Mus musculus with 20 samples.

Results

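The fetal and hypertrophy marker genes of the heart were examined in iron-deficiency anemia. The 8 genes were *Nppa*, *Nppb*, *Myh7*, *Acta1*, *Ankrd1*, *Rcan1*, *Fhl1* and *Ctgf*, chosen by name from the 23420 genes of the count table, and all 8 passed the filter on low counts. RNA-seq was carried out on whole hearts of wild type male C57BL/6 mice (C57BL/6J in the study's methods) aged 9 weeks. From weaning at 3 weeks of age, 10 mice received a control diet and 10 mice an iron-deficient diet for 6 weeks, and the latter are called IDA mice. The iron content given for the deficient diet differs between the labels, so it is not stated here. Each library came from the heart of 1 mouse, and the question was whether the marker genes differed between the diets.

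A heart under a raised load of pressure or volume is known to switch on genes of the fetal ventricle. *Nppa* and *Nppb* encode the natriuretic peptides ANP and BNP, which are released by stretched cardiomyocytes and lower blood pressure through the receptor NPR1. *Myh7* encodes the slow myosin heavy chain and *Acta1* the skeletal α-actin, which in rodents are replaced by *Myh6* and *Actc1* products after birth. *Rcan1* encodes an inhibitor of the phosphatase calcineurin and is itself switched on by calcineurin through NFAT factors. *Ctgf* encodes a secreted matrix protein and is a target of YAP and TGF-β. *Ankrd1* and *Fhl1* encode proteins that bind the spring region of titin and respond to stretch.

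The natriuretic peptide genes are neighbours on chromosome 4 of mm10, with *Nppb* at chr4:147985789-147987205 and *Nppa* at chr4:148000746-148002067, both on the plus strand with 3 exons. *Myh7* lies at chr14:54970688-54994549 on the minus strand, *Acta1* at chr8:123891758-123894775 on the minus strand and *Ankrd1* at chr19:36111965-36119844 on the minus strand. *Rcan1* spans chr16:92391953-92466146 on the minus strand, *Fhl1* chrX:56731787-56793346 on the plus strand and *Ctgf* chr10:24595442-24598682 on the plus strand. Exonic lengths ran from 780 bp for *Nppb* to 6054 bp for *Myh7*. Counting ignored strand, and genes of the opposite strand in GENCODE M21 cover 532 of the 829 exonic bp of *Nppa*, 1128 of the 6054 bp of *Myh7* and 541 of the 2402 bp of *Ctgf*. On those bases, reads of these 3 genes cannot be told apart from reads of the partners, and 463 bp of *Myh7* are also shared with the row of *D830015G02Rik*.

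Read pairs counted on genes came to 6797180 to 8960688 per control heart (median 7902932) and 6682177 to 7833916 per IDA heart (median 6806177), and these totals differed between the diets (two-sided permutation test, p = 0.00944). The marker genes rested on 583 (*Nppb*) to 2791 (*Myh7*) read pairs per control heart on average. Values are in CPM, the read pairs of a gene relative to the total of its library, with the total scaled by TMM. The authors had removed duplicate reads, which caps the counts of strongly expressed genes, and the highest counts per exonic base of any gene were 2.06 to 2.39 per mouse. The marker genes had 0.350 (*Myh7*) to 1.93 (*Nppa*) counts per base. Cardiomyocyte markers were present in every heart, with sums of 6635 to 9931 CPM on the control diet (median 8653) and 5500 to 8551 CPM on the deficient diet (median 6918). Of these 8 markers, 1 was called higher and 2 lower. The lower ones were the long genes *Ttn* (means of 3158 and 1824 CPM) and *Ryr2* (1774 and 1248 CPM). Both were called higher with the correction for gene length given below. Erythroid markers summed to 51.2 to 125 CPM on the control diet and 135 to 579 CPM on the deficient diet, with all 3 tested ones higher and *Hba-a1* and *Hba-a2* at 0 in every mouse. Their part in the differences of the marker genes was not tested.

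Promoter windows of 300 bases, with 250 bases before and 50 after each start site, were taken from RefSeq (GRCm38.p6, the assembly of mm10) for 7 of the 8 genes. *Ctgf* was not matched. Both strands were searched for GATAA (bound by GATA factors), CATTCC (bound by TEAD factors), GGAAAA (bound by NFAT factors) and the CArG box (bound by SRF). The windows of 4 genes follow, 5′ to 3′ along the gene, because the first 3 belong to genes that passed the test between the diets and the last shows a stretch-responsive gene with matches of the same kinds. Capitals mark the matches. The windows are chr4:148000472-148000771 (plus strand) for *Nppa*, chr4:147985650-147985949 (plus strand) for *Nppb*, chr16:92400029-92400328 (minus strand) for the downstream start of *Rcan1* and chr19:36119795-36120094 (minus strand) for *Ankrd1*.
Nppa: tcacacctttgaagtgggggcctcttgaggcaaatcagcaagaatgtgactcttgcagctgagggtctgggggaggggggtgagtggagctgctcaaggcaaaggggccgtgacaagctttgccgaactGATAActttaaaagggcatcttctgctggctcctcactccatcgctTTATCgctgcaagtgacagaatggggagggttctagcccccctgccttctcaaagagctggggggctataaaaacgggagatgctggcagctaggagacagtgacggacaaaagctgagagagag
Nppb: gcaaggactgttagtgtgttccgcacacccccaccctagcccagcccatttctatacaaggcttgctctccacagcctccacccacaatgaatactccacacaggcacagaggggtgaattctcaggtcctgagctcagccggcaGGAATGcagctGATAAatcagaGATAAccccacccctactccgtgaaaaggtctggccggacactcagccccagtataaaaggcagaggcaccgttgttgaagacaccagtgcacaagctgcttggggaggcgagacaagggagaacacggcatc
Rcan1: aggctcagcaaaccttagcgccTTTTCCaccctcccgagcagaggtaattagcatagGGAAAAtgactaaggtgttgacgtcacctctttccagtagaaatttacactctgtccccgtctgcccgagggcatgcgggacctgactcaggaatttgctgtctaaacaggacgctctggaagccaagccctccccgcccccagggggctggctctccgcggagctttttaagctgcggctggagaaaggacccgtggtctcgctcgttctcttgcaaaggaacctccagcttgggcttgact
Ankrd1: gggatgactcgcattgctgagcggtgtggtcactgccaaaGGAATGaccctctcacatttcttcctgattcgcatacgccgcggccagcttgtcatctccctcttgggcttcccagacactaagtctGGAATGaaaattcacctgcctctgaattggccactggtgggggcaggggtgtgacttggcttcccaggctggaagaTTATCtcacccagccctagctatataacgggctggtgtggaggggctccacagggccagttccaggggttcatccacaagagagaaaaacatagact

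The window of *Nppa* held GATAA matches that began at -121 and -75 from the start site, and that of *Nppb* at -94 and -83. *Nppb* also had a CATTCC match at -105, and *Ankrd1* had matches at -210 and -123 beside a GATAA match at -47. The downstream window of *Rcan1* held GGAAAA matches at -228 and -193, while its upstream window (chr16:92466120-92466419) held none of the 4 motifs. *Acta1* had a CArG box at -73 and a CATTCC match at -46, *Fhl1* a CArG box at -102 and a GATAA match at 29 in 1 of its 2 windows, and *Myh7* a CATTCC match at -201 in 1 of its 2 windows. Among all 32851 promoter windows of this length, GATAA occurred in 25.4%, CATTCC in 14.7%, GGAAAA in 23.4% and the CArG box in 1.63%. A match describes the letters of the window, and binding was not measured.

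In the test of all 13590 expressed genes, 4 of the 8 marker genes were higher in IDA hearts and 0 were lower. Those that passed the quasi-likelihood test of edgeR (adjusted p below 0.05) were *Nppa*, *Nppb*, *Rcan1* and *Ctgf*, with folds of 1.26, 1.19, 1.25 and 1.26. Of these, *Nppa* had group means of 1.28 and 1.53 counts per base, near the cap of duplicate removal. The part of the cap in its fold was not tested. *Myh7*, *Acta1*, *Ankrd1* and *Fhl1* did not pass, with log2 fold changes between 0.08 and 0.11. Of all tested genes, 35.0% were higher in IDA hearts, 32.5% were lower and 67.5% passed in either direction. The count of higher marker genes is therefore to be read against a background in which a large share of genes moved. The median log2 fold change was 0.18 over the 8 genes and 0.02 over all tested genes. With the correction for gene length given below, these medians were 0.07 and 0.04. In RNA of whole hearts, more RNA per cell and more cells of a type cannot be told apart.

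**Figure D1:**
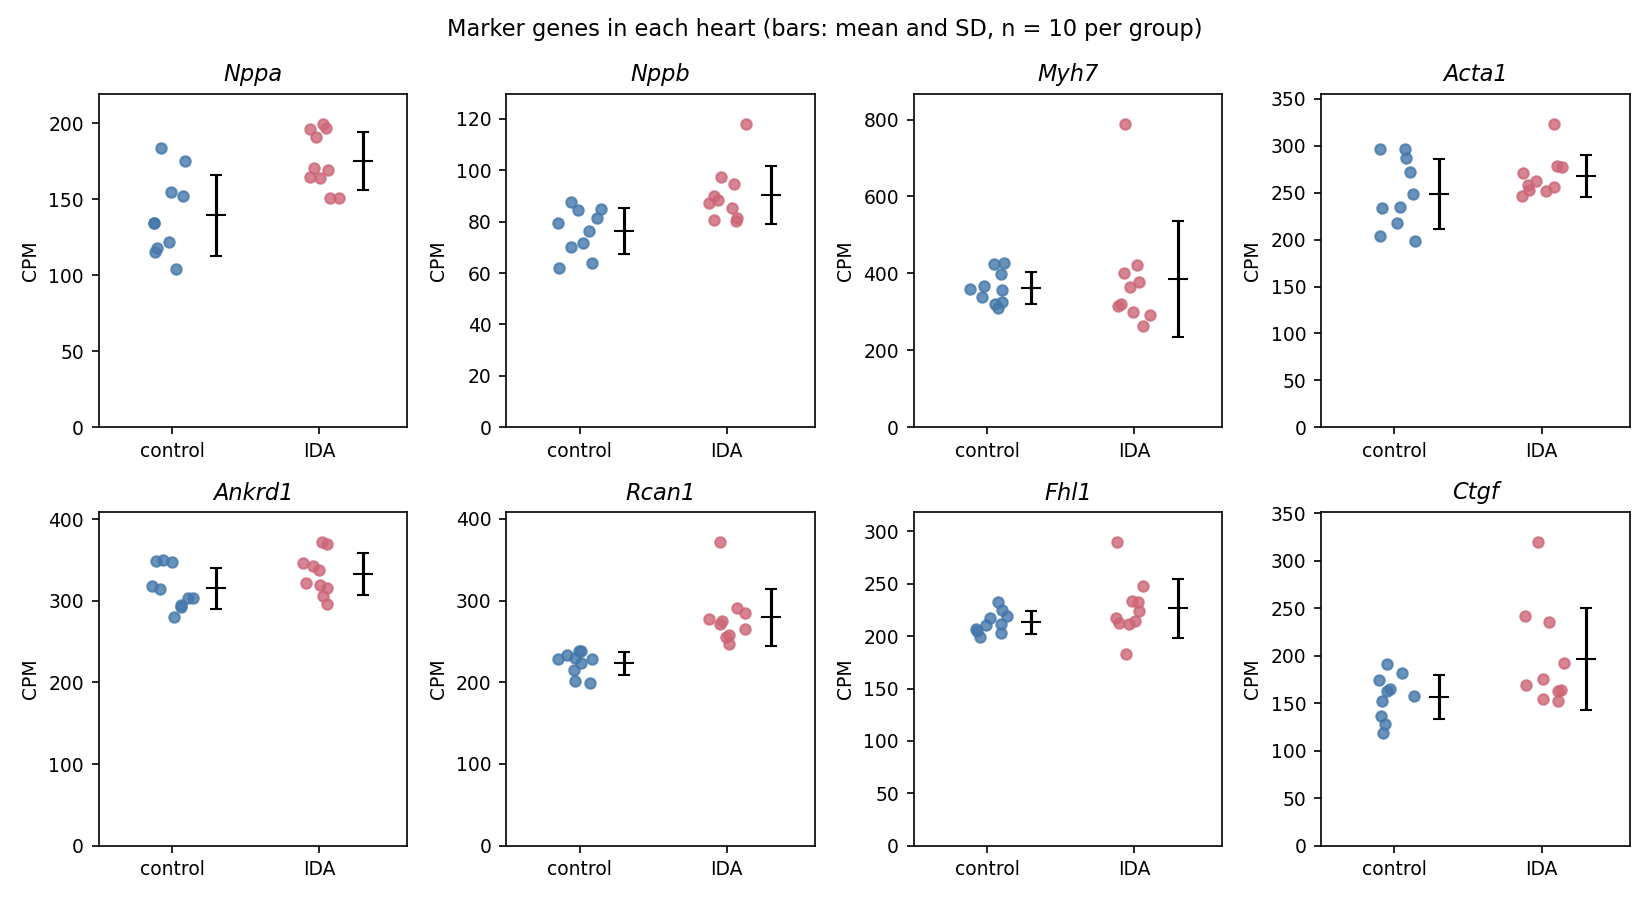
Expression in CPM of the 8 marker genes in each heart (points, 10 control and 10 IDA mice), with the group mean and SD beside them, on axes that start at 0. The groups do not overlap for Rcan1, which also holds for genes not shown, and 1 IDA heart stands at 789 CPM of Myh7.

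Fold changes varied with gene length. Across the tested genes, log2 fold changes fell with exonic length, from a median of 0.34 in the shortest group of 10 equal groups (median length 882.5 bp) to -0.53 in the longest group (median length 7763 bp). *Nppa* and *Nppb* are as short as the genes of the shortest group, and *Myh7* is longer than the median of the group before the longest. The marker genes had a median length of 2083.5 bp, near which all genes had medians of 0.20 and 0.12. A second analysis removed the trend on length from each mouse before testing, and is called the gene length correction. It gave 3 higher marker genes, *Myh7*, *Rcan1* and *Ctgf*, and 0 lower ones, against 31.5% higher, 23.5% lower and 55.0% in either direction among all tested genes. *Rcan1* and *Ctgf* passed in both analyses. *Myh7* had mean counts of 2791 (control) and 2784 (IDA) per heart, and its corrected value was not refitted without the IDA heart at 789 CPM. With GC content corrected as well, *Myh7* was at 0.23 and did not pass (adjusted p = 0.188), and *Acta1* was called lower (-0.21, adjusted p = 0.0156).

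**Figure D2:**
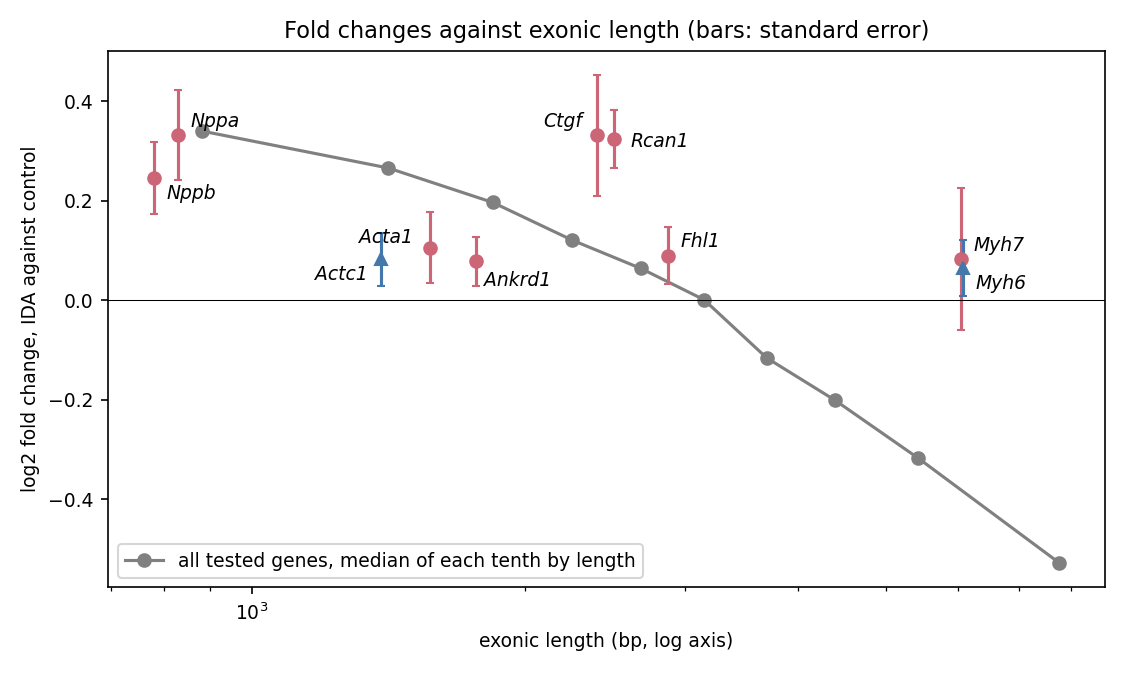
Log2 fold change, IDA against control, with its standard error, plotted against exonic length on a log axis for the marker genes (circles) and for Myh6 and Actc1 (triangles), whose counts are close to the cap of duplicate removal. The line joins the medians of all tested genes in 10 equal groups by length, which run from 0.34 to -0.53, and Rcan1, Ctgf, Myh7 (0.08 at 6054 bp) and, by less, Fhl1 lie above it.

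*Nppa* expression in control hearts ran from 104 to 184 CPM with a median of 134, and in IDA hearts from 151 to 200 CPM with a median of 170.0. All 10 IDA hearts were above the control mean and 4 were above the highest control heart, so the groups overlapped. The means were 139 ± 26.5 CPM and 175 ± 18.9 CPM (SD, n = 10 each), with a log2 fold change of 0.33 (standard error 0.09, 95% confidence interval 0.15 to 0.52, adjusted p = 0.00239). The gene length correction gave 0.01 (adjusted p = 0.912), and log2 library size as a covariate gave 0.23 (adjusted p = 0.0602). The call was lost in both. *Nppa* counts varied from 793 to 1598 per heart, with group means of 1.28 and 1.53 counts per base and up to 1.93, near the cap of duplicate removal, and the part of the cap in the fold was not tested.

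*Nppb* ran from 61.8 to 87.6 CPM in control hearts with a median of 78.1, and from 80.2 to 118 CPM in IDA hearts with a median of 87.9. Again all 10 IDA hearts were above the control mean, and 5 exceeded the highest control heart. The means were 76.3 ± 9.0 and 90.3 ± 11.3 CPM, and the log2 fold change was 0.25 (standard error 0.07, 95% confidence interval 0.10 to 0.40, adjusted p = 0.00477). The call was lost with the gene length correction (-0.09, adjusted p = 0.273) and with log2 library size as a covariate (0.21, adjusted p = 0.0509). Counts per exonic base of *Nppb* were 59.4% ± 9.1 of those of *Nppa* in control hearts and 55.0% ± 5.9 in IDA hearts, a log2 difference of -0.10 (standard error 0.09, two-sided permutation test, adjusted p = 0.527 over 4 ratios).

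Whole hearts include atria, where *Nppa* is expressed at a high level, so atrial genes were examined beside it. Of 10 atrial marker genes, 9 were tested, of which *Stard10* was higher and *Kcnj3* and *Nr2f2* were lower in IDA hearts. Their summed level was 306 to 701 CPM in the control group and 289 to 885 CPM in the IDA group, and none of them was at 0 in every mouse. The mean of sarcolipin (*Sln*) was 33.3 ± 17.3 CPM in the control group and 50.4 ± 23.9 CPM in the IDA group (adjusted p = 0.1), and the atrial myosin light chain *Myl7* had 62.7 ± 20.1 and 83.8 ± 26.2 CPM (adjusted p = 0.0615). The mean log2 CPM of *Sln*, *Myl7*, *Myl4* and *Mybphl* was 5.48 ± 0.76 and 6.00 ± 0.89, a difference of 0.52 (two-sided permutation test, p = 0.175).

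The relation of *Nppa* to these 4 atrial genes, which were chosen after seeing the data, was examined within each diet. The difference between the diets was not tested. In IDA hearts, Pearson's r was 0.81 (permutation p = 0.00134, adjusted p = 0.0214 over 16 relations) and Spearman's rho 0.89 (permutation p = 0.00121, adjusted p = 0.0194), and r was 0.92 without the 2 hearts farthest from the median. In control hearts r was 0.69 (permutation p = 0.0299, adjusted p = 0.179) and rho 0.72 (permutation p = 0.024, adjusted p = 0.128), with r = 0.67 without the 2 farthest hearts. With the mean of all tested atrial markers in place of the 4 genes, r was 0.78 in IDA hearts and 0.63 in control hearts. For *Nppb* r was 0.11 in control and 0.38 in IDA hearts (adjusted permutation p = 0.988 and 0.814). *Ctgf* had r = 0.68 and rho = 0.75 in control hearts (permutation p = 0.0336 and 0.0173, adjusted p = 0.179 and 0.128), close to the values of *Nppa* there, and r = 0.26 in IDA hearts (adjusted permutation p = 0.843). With the mean of the 4 atrial genes as a covariate, the log2 fold change was 0.24 for *Nppa* (adjusted p = 0.0047) and 0.21 for *Nppb* (adjusted p = 0.0171). With the mean of the atrial marker list as a covariate the values were 0.29 (adjusted p = 0.000965) and 0.23 (adjusted p = 0.0081). The share of atrial tissue in each sample was not measured.

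**Figure D3:**
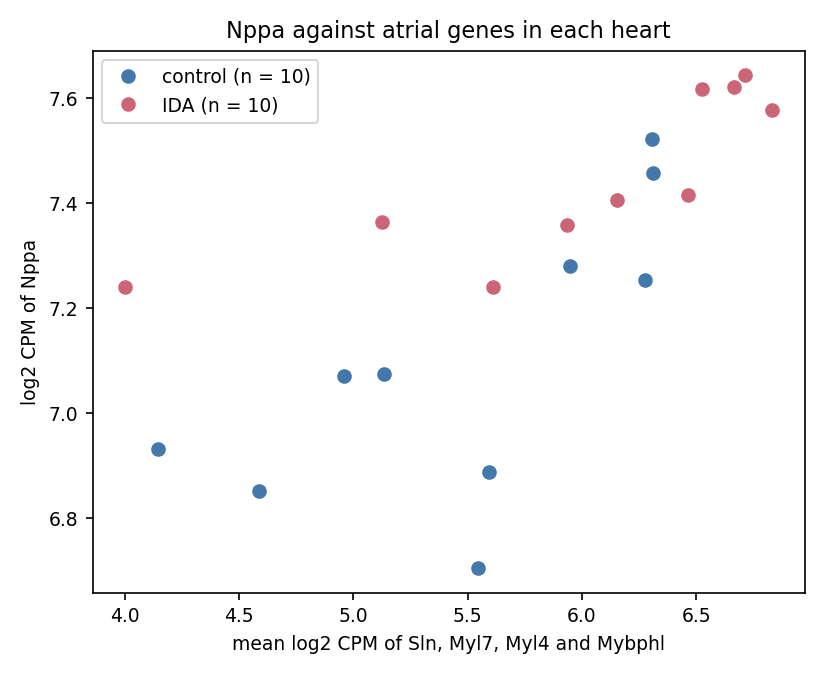
Log2 CPM of Nppa in each heart against the mean log2 CPM of 4 atrial genes (Sln, Myl7, Myl4 and Mybphl), for 10 control and 10 IDA hearts. Pearson's r is 0.69 in control hearts and 0.81 in IDA hearts, and the difference between them was not tested.

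Of 15 genes listed for natriuretic peptides and their processing, reception and relay, 13 were tested, of which 1 was higher and 5 were lower. Among all tested genes 35.0% were higher and 32.5% lower. The list also holds *Osr1*, a transcription factor gene that is not part of this pathway. *Osr1* did not pass (log2 fold change -0.23, adjusted p = 0.245) and is included in the list median. The median log2 fold change was -0.10 at a median length of 4298 bp, where all genes of similar length had about -0.20. The receptor *Npr1*, a guanylyl cyclase, rose from 79.5 ± 8.6 to 92.4 ± 9.1 CPM (log2 fold change 0.22, adjusted p = 0.00382), and to 0.41 with the gene length correction (adjusted p = 0.000104). *Corin*, the protease that activates pro-ANP, fell from 394 ± 33.1 to 308 ± 57.8 CPM (log2 fold change -0.36, adjusted p = 0.00102), a call that the correction removed (-0.06, adjusted p = 0.444). *Npr2* and the clearance receptor *Npr3* did not pass, with log2 fold changes of -0.04 (adjusted p = 0.491) and 0.02 (adjusted p = 0.932), and *Npr3* was called higher with the correction (0.47, adjusted p = 0.0299).

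The lower genes of this group include ones that act on the peptides or after them. *Mme*, which encodes the peptide-degrading protease neprilysin, fell from 32.6 ± 3.7 to 14.3 ± 3.4 CPM (log2 fold change -1.19, adjusted p = 1.65e-07). The phosphodiesterase *Pde3a* fell from 112 ± 24.5 to 47.3 ± 22.7 CPM (log2 fold change -1.25, adjusted p = 1.8e-05), and the cGMP-dependent kinase *Prkg1* from 44.5 ± 7.1 to 22.6 ± 3.9 CPM (log2 fold change -0.98, adjusted p = 1.71e-07). In all 10 IDA hearts each of these 3 genes was below the control mean, and each stayed lower with the gene length correction, at -0.98, -1.05 and -0.50 in the order given. With the correction the group had 4 higher and 4 lower genes, beside 31.5% and 23.5% of all tested genes.

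*Myh7* did not pass the test as deposited. It ran from 311 to 427 CPM in control hearts with a median of 358, and from 263 to 789 CPM in IDA hearts with a median of 343. IDA mouse 4, at 789 CPM, was the only IDA heart above the highest control heart, and 3 IDA hearts were below the lowest. The means were 363 ± 41.7 and 384 ± 151 CPM (log2 fold change 0.08, standard error 0.14, 95% confidence interval -0.21 to 0.38, adjusted p = 0.622). Without IDA mouse 4 the log2 fold change was -0.10 (adjusted p = 0.298). With the gene length correction and all mice it was 0.48 (adjusted p = 0.0118), and this fit was not repeated without IDA mouse 4. *Myh6*, of similar length (6079 bp), was at 0.45 with the same correction. Correction for length and GC content together gave *Myh7* 0.23 (adjusted p = 0.188), and the call was lost.

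*Myh6*, the adult partner, could not be compared between the diets. Its counts were 10013 to 10651 in all 20 hearts, or 1.65 to 1.75 per exonic base, although library totals differed, so that it sat close to the cap of duplicate removal. Its CPM, 1366 ± 124 in the control group and 1428 ± 127 in the IDA group, therefore moved with the library total, and no change is read from it. A ratio of *Myh7* to *Myh6* has a denominator that hardly varied and does not measure the isoform proportion. Per exonic base it was 21.5% to 33.4% in control hearts and 20.9% to 63.2% in IDA hearts, where IDA mouse 4 was highest and the next heart was at 26.4%.

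*Acta1* ran from 198 to 297 CPM in control hearts with a median of 241.9, and from 246 to 324 CPM in IDA hearts with a median of 260.3. The IDA hearts lay within the upper part of the control range, with IDA mouse 4 above it. The means were 249.1 ± 37.4 and 268 ± 22.4 CPM (log2 fold change 0.11, standard error 0.07, adjusted p = 0.198), and the correction gave -0.09 (adjusted p = 0.276). The cardiac actin *Actc1* had 2490 to 2575 counts in all hearts (1.79 to 1.85 per exonic base), again close to the cap, so no change of *Actc1* or of the ratio to it is read.

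The fetal troponin *Tnni1* was near the filter of 1 CPM, at 1.25 ± 0.62 CPM in control and 1.87 ± 0.97 CPM in IDA hearts (log2 fold change 0.58, adjusted p = 0.0897). The adult troponin *Tnni3* had 1.84 to 2.08 counts per exonic base, close to the cap, and no change is read from it.

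Of 17 contractile isoform genes, 9 were higher and 0 were lower as deposited, and 4 were higher and 6 were lower with the gene length correction. Of all tested genes 35.0% were higher and 32.5% lower as deposited, and 31.5% and 23.5% with the correction. The isoform genes are short, with a median exonic length of 1114 bp, and the groups of all genes nearest in length had medians of 0.34 and 0.27. Of the 9 higher genes as deposited, *Tnni3*, *Tnnc1*, *Myl2* and *Myl3* had group means of 1.59 to 2.19 counts per base, so their calls are not read as changes. All 6 lower genes with the correction had group means in the same range, and *Myh6*, close to the cap, was among the 4 higher ones. These calls with the correction are not read as changes either. The largest change among those called was in the smooth muscle actin *Actg2*, from 4.4 ± 1.54 to 6.34 ± 2.69 CPM (log2 fold change 0.55, adjusted p = 0.0332), a call lost when any one of 7 hearts was left out (0.41 without IDA mouse 3, adjusted p = 0.0876). The slow skeletal troponin *Tnnt1* followed, from 35.6 ± 3.5 to 49.7 ± 5.8 CPM (log2 fold change 0.48, adjusted p = 2.59e-06, higher in 10 of 10 IDA hearts), and then the light chain *Myl1*, from 33.4 ± 6.1 to 44.3 ± 11.1 CPM (log2 fold change 0.41, adjusted p = 0.00719). *Tnnt1* alone of these 3 passed with the correction (0.18, adjusted p = 0.00749). Markers of skeletal muscle other than *Ckm*, which cardiomyocytes also express, summed to 10.9 to 17.9 CPM on the control diet (median 13.4) and to 15.04 to 49.0 CPM on the deficient diet (median 17.6), and their part in these differences was not tested. With *Ckm* included, 2 of 6 tested skeletal muscle genes were higher and 0 lower.

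Among the 8 marker genes, only *Rcan1* had groups that did not overlap. Control hearts ran from 199.6 to 238.5 CPM with a median of 228, and IDA hearts from 247 to 371 CPM with a median of 273. The lowest IDA heart was above the highest control heart. Outside the marker genes, *Srf* and *Uchl1* also had all 10 IDA hearts above the highest control heart. *Mef2a*, *Gsk3b* and *Tead1* had all 10 below the lowest. The share of all tested genes with such groups was not counted, so the separation is not read as particular to *Rcan1*. The means were 224 ± 14.0 and 280 ± 34.9 CPM, and the log2 fold change was 0.32 (standard error 0.06, 95% confidence interval 0.20 to 0.44, adjusted p = 3.87e-05). The gene length correction gave 0.29 (adjusted p = 0.000154), and correction for length and GC content together gave 0.17 (adjusted p = 0.0106). Counts were summed over the gene, so that transcripts from the upstream start and from the downstream start, whose window with GGAAAA is printed above, were not separated.

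Counts of other calcineurin pathway genes depended on the length correction. Of 22 genes for calcineurin subunits, NFAT, MEF2 and GATA factors and their regulators, 1 was higher and 16 were lower as deposited, and 8 were higher and 9 lower with the correction. Among all tested genes these shares were 35.0% and 32.5%, and 31.5% and 23.5%. The median log2 fold change was -0.29 as deposited at a median length of 3982 bp, where the groups of all genes nearest in length had medians of -0.12 and -0.20, and -0.12 with the correction, against 0.04 for all tested genes. The catalytic subunit *Ppp3ca* fell from 88.6 ± 4.4 to 71.6 ± 4.7 CPM (log2 fold change -0.31, adjusted p = 1.48e-06; -0.39 with the correction). The transcription factor *Mef2a* fell from 162 ± 33.8 to 57.3 ± 23.1 CPM (log2 fold change -1.50, adjusted p = 6.9e-07), with nearly the same value after the correction (-1.47). *Gsk3b*, a kinase that opposes NFAT, fell from 178 ± 22.0 to 101 ± 15.9 CPM (log2 fold change -0.81, adjusted p = 2.1e-07), and the histone deacetylase *Hdac9* from 77.3 ± 9.0 to 45.9 ± 11.3 CPM (log2 fold change -0.75, adjusted p = 3.96e-06). The paralogue *Rcan2* had 498 ± 32.4 and 505 ± 32.1 CPM and did not pass (log2 fold change 0.02, adjusted p = 0.681), but was called higher with the correction (0.17, adjusted p = 0.00704). With the correction *Gsk3b* was at -0.28, and *Hdac9* no longer passed (-0.12, adjusted p = 0.269). *Ppp3ca* was named after its values were seen.

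*Ctgf* ran from 119 to 191 CPM in control hearts with a median of 160.1, and from 153 to 319 CPM in IDA hearts with a median of 172. The groups overlapped, with 8 of 10 IDA hearts above the control mean and 4 above the highest control heart. The means were 157 ± 23.4 and 197 ± 53.6 CPM (log2 fold change 0.33, standard error 0.12, 95% confidence interval 0.08 to 0.58, adjusted p = 0.0191), and the gene length correction gave 0.28 (adjusted p = 0.0488). The call passed with the mean of the atrial marker list as a covariate (0.29, adjusted p = 0.0269) and not with the mean of the 4 atrial genes (0.25, adjusted p = 0.0647). It passed in 84 of 100 fits that each left out 1 mouse of each group. The smallest value in those fits was 0.17 (adjusted p = 0.112). Fibroblast markers summed to 1496 to 1857 CPM on the control diet and 1465 to 1758 CPM on the deficient diet, with 1 of 7 higher and 1 lower, and none was at 0 in every mouse.

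Of 25 genes of the Hippo, SRF and TGF-β pathways, 3 were higher and 14 were lower, and 5 and 9 with the correction, while 35.0% and 32.5% of all tested genes passed as deposited and 31.5% and 23.5% with the correction. The median log2 fold change was -0.27 at a median length of 4613 bp, near which all genes had medians of -0.20 and -0.32. With the correction it was -0.06. *Tead1*, which encodes a DNA-binding partner of YAP, fell from 511 ± 78.7 to 275 ± 52.0 CPM (log2 fold change -0.89, adjusted p = 3.44e-07; -0.29 with the correction). *Amot*, an adaptor of the Hippo pathway, fell from 38.9 ± 4.7 to 22.2 ± 5.1 CPM (log2 fold change -0.81, adjusted p = 1.12e-06), and was at -0.395 with the correction. *Wisp2*, of the same protein family as *Ctgf*, rose from 19.4 ± 3.2 to 35.1 ± 22.2 CPM (log2 fold change 0.87, adjusted p = 0.00214), in 8 of 10 IDA hearts. IDA mouse 4 had 93.7 CPM of *Wisp2* against an IDA median of 29.6, and without it the log2 fold change was 0.57 (adjusted p = 0.0017). *Tgfb1*, which encodes the ligand TGF-β1, rose from 68.6 ± 8.0 to 94.6 ± 10.5 CPM (log2 fold change 0.47, adjusted p = 4.31e-06; 0.37 with the correction), and *Srf* from 255.7 ± 17.2 to 301 ± 10.2 CPM (log2 fold change 0.24, adjusted p = 9.24e-06; 0.43 with the correction). *Cyr61*, another YAP target of the family, had 119 ± 14.4 and 123 ± 18.1 CPM and did not pass (log2 fold change 0.06, adjusted p = 0.545). *Tgfb1* and *Srf*, the remaining higher genes as deposited, were named after their values were seen, as were the following genes. The receptor genes *Tgfbr1* and *Tgfbr2* were lower as deposited (log2 fold changes -0.79 and -0.36), and at -0.44 and -0.09 with the correction. *Myocd* was lower at -0.71, and at -0.40 with the correction. *Yap1* and *Wwtr1* were lower at -0.27 each, and at -0.06 and 0.01 with the correction. *Tgfb2*, *Tgfb3* and *Mkl1* did not pass as deposited. Activity of these pathways was not measured.

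*Ankrd1* and *Fhl1* did not pass the test. *Ankrd1* ran from 280.3 to 350 CPM in control hearts with a median of 309, and from 296 to 372 CPM in IDA hearts with a median of 330, and the ranges overlapped. The log2 fold change was 0.08 (standard error 0.05, 95% confidence interval -0.02 to 0.18, adjusted p = 0.165), and -0.08 with the correction (adjusted p = 0.178). Its counts were 2154 to 2557 in all hearts but IDA mouse 4 (2957), with means of 1.36 and 1.35 counts per base in the groups, although library totals differed, and the part of the cap of duplicate removal was not tested, so no lack of change is read from it. *Fhl1* ran from 198.9 to 233.1 CPM in control hearts with a median of 211, and from 183 to 290 CPM in IDA hearts with a median of 221, with 3 IDA hearts above and 1 below the control range. Its log2 fold change was 0.09 (standard error 0.06, 95% confidence interval -0.03 to 0.21, adjusted p = 0.166), and 0.12 with the correction (adjusted p = 0.0662).

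Of 21 genes of titin, the Z-disc and their stress sensors, 9 were higher and 4 lower, next to 35.0% and 32.5% of all tested genes, with a median log2 fold change of 0.11. Of the 9 higher genes, *Csrp3*, *Tcap*, *Myoz2* and *Ankrd23* had group means of 1.28 to 1.59 counts per base, so their calls are not read as changes. The marker gene *Nppa* lies in the same range of counts per base. Its mean counts were 1063 (control) and 1266 (IDA) per heart, and the part of the cap in its fold was not tested. Leaving out 1 heart lost the call of *Tcap* in 10 of 20 fits, of *Csrp3* in 8 and of *Myoz2* in 1. *Ankrd2*, the relative of *Ankrd1* in skeletal muscle, had 0.803 ± 0.402 CPM in control and 1.55 ± 1.13 CPM in IDA hearts (log2 fold change 0.97, adjusted p = 0.0184), and the correction removed the call (0.70, adjusted p = 0.0886), as did leaving out IDA mouse 4 (0.61, adjusted p = 0.0649). *Ankrd23*, the third relative, had 328 ± 24.0 and 365 ± 21.9 CPM (log2 fold change 0.16, adjusted p = 0.00332; 0.03 with the correction, adjusted p = 0.545), while its mean counts were 2506 and 2623 per heart. *Ttn*, the gene of titin with 104320 exonic bp, was called lower as deposited (log2 fold change -0.79, adjusted p = 4.54e-05) and higher with the correction (0.57, adjusted p = 8.3e-06). *Xirp2*, which encodes an actin-binding protein of the intercalated disc, fell by 0.58 on the log2 scale (adjusted p = 6.75e-06) and was at 0.11 with the correction (adjusted p = 0.224). *Fhl2*, the cardiac relative of *Fhl1*, had 298 ± 25.0 and 321 ± 20.3 CPM (1.46 and 1.47 counts per base) and did not pass (log2 fold change 0.11, adjusted p = 0.0515). With the correction the group had 7 higher and 5 lower genes, next to 31.5% and 23.5% of all. The 5 lower ones include *Csrp3*, *Tcap* and *Myoz2*, whose calls are not read as changes in this direction either.

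Among 18 other markers of myocardial stress, 16 were tested, and 7 of these were higher and 1 lower as deposited, and 3 were higher and 1 lower with the gene length correction. All tested genes had 35.0% higher and 32.5% lower as deposited, and 31.5% and 23.5% with the correction. Galectin-3 (*Lgals3*), a product of macrophages and injured tissue, rose from 9.14 ± 2.77 to 21.0 ± 14.3 CPM (log2 fold change 1.22, adjusted p = 0.000925; 0.99 with the correction, adjusted p = 0.00611). *Gdf15*, a stress cytokine, had 3.33 ± 1.16 and 6.68 ± 8.81 CPM (log2 fold change 1.02, adjusted p = 0.0349), with 5 of 10 IDA hearts above the control mean and no call after the correction (0.73, adjusted p = 0.135). The medians were 2.94 and 3.41 CPM, IDA mouse 4 was at 31.5 CPM, and without this heart *Gdf15* was at 0.24 (adjusted p = 0.323). The call was lost when any one of 6 hearts was left out, which were IDA mouse 4 and control mice 1, 3, 6, 8 and 9. *Uchl1*, a ubiquitin hydrolase, rose from 19.5 ± 1.7 to 37.3 ± 8.2 CPM in 10 of 10 IDA hearts (log2 fold change 0.94, adjusted p = 2.3e-07; 0.67 with the correction). Macrophage markers summed to 342 to 421 CPM on the control diet and 291 to 421 CPM on the deficient diet, with 1 of 5 higher and 3 lower, and their part in the *Lgals3* difference was not tested.

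Of 14 adult genes known to be lower in hypertrophy, 6 were lower and 2 were higher (32.5% and 35.0% of all tested genes). With the correction 4 passed in each direction (23.5% and 31.5% of all). The 4 higher ones with the correction include *Myh6*, which was close to the cap of duplicate removal. They also include *Atp2a2*, with group means of 1.476 (control) and 1.396 (IDA) counts per base. Neither of these calls is read as a change. The 3 largest changes were in genes of potassium channels. *Kcnd3* fell from 51.8 ± 8.2 to 28.5 ± 6.1 CPM (log2 fold change -0.86, adjusted p = 1.09e-06), *Kcnd2* from 84.0 ± 11.96 to 52.5 ± 12.7 CPM (log2 fold change -0.68, adjusted p = 5.57e-05) and *Kcnj2* from 119.8 ± 26.1 to 76.6 ± 16.0 CPM (log2 fold change -0.65, adjusted p = 0.000189). The correction left them at -0.39, -0.44 and -0.31, and all 3 stayed lower. *Kcnip2*, which encodes a subunit of such channels, was higher (log2 fold change 0.23, adjusted p = 0.000895; 0.19 with the correction), and was named after its value was seen.

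**Figure D4:**
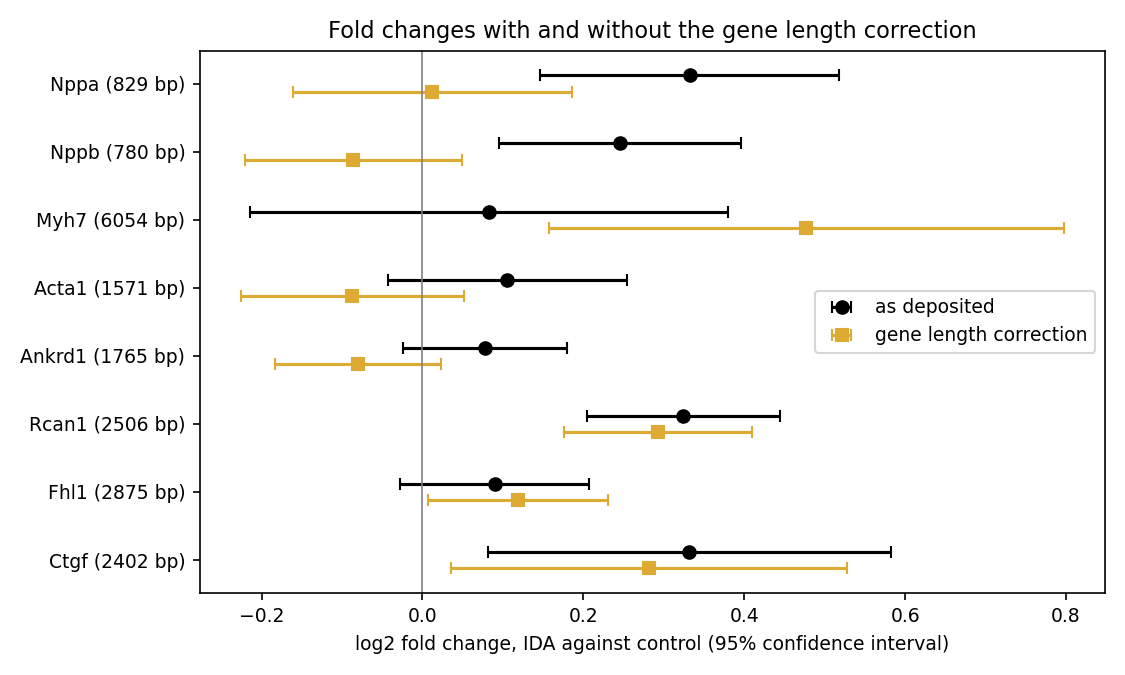
Log2 fold change, IDA against control, of the 8 marker genes with the 95% confidence interval, as deposited (black circles) and with the gene length correction (yellow squares). Nppa moves from 0.33 to 0.01 and Myh7 from 0.08 to 0.48, while Rcan1 is at 0.32 and 0.29.

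Levels per exonic kilobase put the marker genes in order. In control hearts *Ankrd1* had the highest mean with 178.5 ± 14.3 CPM per kb, followed by *Nppa* with 168 ± 32.0, *Acta1* with 159 ± 23.8, *Nppb* with 97.8 ± 11.5, *Rcan1* with 89.2 ± 5.6, *Fhl1* with 74.1 ± 3.7, *Ctgf* with 65.3 ± 9.8 and *Myh7* with 60.0 ± 6.9. Of neighbours in this order, only *Acta1* and *Nppb* had ranges that did not overlap between control hearts. In IDA hearts *Nppa* was first, with 212 ± 22.8 CPM per kb, and it was above *Ankrd1* in 9 of 10 hearts. These values carry the cap of duplicate removal, with group means of 1.21 to 1.53 counts per base in *Nppa*, *Acta1* and *Ankrd1*.

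Libraries carry numbers in their names that fall in a lower set (5 control and 7 IDA hearts) and a higher set (5 control and 3 IDA hearts), and the comparison was repeated within each. In the lower set 6 of the 8 marker genes were higher and 0 lower, against 30.2% higher and 28.7% lower among all tested genes. In the higher set only *Rcan1* was higher, and *Myh7* was lower, against 19.4% and 24.1% among all tested genes. *Rcan1* had a log2 fold change of 0.39 in the lower set (adjusted p = 0.00182) and 0.24 in the higher set (adjusted p = 0.00512). *Nppa* had 0.40 and 0.25 (adjusted p = 0.00289 and 0.205), *Nppb* 0.31 and 0.19 (adjusted p = 0.0163 and 0.0728), and *Ctgf* 0.45 and 0.16 (adjusted p = 0.0307 and 0.396). *Acta1* was called only in the lower set, with 0.24 and -0.05 (adjusted p = 0.02 and 0.679), as was *Ankrd1*, with 0.17 and -0.05 (adjusted p = 0.0237 and 0.561). *Myh7* had 0.24 and -0.35 (adjusted p = 0.305 and 0.0175). The difference between the sets was not tested, and the higher set holds only 3 IDA hearts. With the set as a covariate, *Nppa*, *Nppb*, *Rcan1* and *Ctgf* passed, as in the pooled comparison.

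IDA mouse 4 had the highest level among IDA hearts of all marker genes but *Ankrd1*. It also had the lowest summed cardiomyocyte markers of all hearts (5500 CPM, against 6635 to 9931 CPM in control hearts) and the highest fibroblast sum of the IDA hearts (1758 CPM), and the part of these in its marker levels was not tested. In the cardiomyocyte sum the long genes *Ttn* and *Ryr2* had the highest means in control hearts. *Myh6* (1254 CPM), *Actc1* (311 CPM) and *Tnni3* (199.8 CPM), all close to the cap, lay within their control ranges in IDA mouse 4. Without this heart, *Nppa*, *Nppb*, *Rcan1* and *Ctgf* were still called, with log2 fold changes of 0.31, 0.19, 0.27 and 0.23 (adjusted p = 0.005, 0.00908, 6.17e-06 and 0.0445).

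Pairs of marker genes were compared between hearts. With each group centred on its mean, Pearson's r of log2 CPM over the 20 hearts was 0.845 for *Nppb* with *Rcan1*, 0.834 for *Nppb* with *Acta1*, 0.827 for *Acta1* with *Ankrd1* and 0.796 for *Fhl1* with *Ctgf*, given as a description over hearts that also differ in depth and library set. Without IDA mouse 4, these were 0.775, 0.807, 0.801 and 0.647. *Acta1* and *Ankrd1* had group means of 1.21 to 1.36 counts per base, and the part of the cap of duplicate removal in their r was not tested. Over all 28 pairs r ran from 0.196 to 0.845 with that heart and from -0.119 to 0.807 without it. The values of *Myh7* with *Rcan1* fell from 0.625 to -0.047, of *Rcan1* with *Fhl1* from 0.529 to -0.013, of *Rcan1* with *Ctgf* from 0.49 to 0.002 and of *Nppb* with *Myh7* from 0.433 to -0.084.

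Among all tested genes, those whose pattern over the 20 hearts was most like each marker gene were found in the same way. For *Nppa* they were *Gpx3* (r = 0.883), *Cilp2* (0.756) and the atrial gene *Stard10* (0.747). *Nppb* was nearest to *Lrp11* (0.848), *Rcan1* (0.845) and *Hebp1* (0.838), and *Acta1* to *Nars* (0.875), *Wdr1* (0.838) and *Nppb* (0.834). *Ankrd1* was nearest to *Ptgds* (0.856), its relative *Ankrd23* (0.852) and *Myl12a* (0.84). *Ankrd1* and *Ankrd23* had group means of 1.28 to 1.36 counts per base. The part of library totals and of the cap of duplicate removal in their likeness was not tested, so no shared regulation is read from it. *Rcan1* was nearest to *Mllt11* (0.855, and 0.573 without IDA mouse 4), *Tnfrsf12a* (0.85) and *Plekho1* (0.849). *Fhl1* was nearest to *Hsp90aa1* (0.824), *Bgn* (0.822) and *Aspn* (0.817), and *Ctgf* to *Kcne4* (0.861) and *Ptprr* (0.859). For *Myh7* the values were 0.923 with *Edn3*, 0.875 with *Hspa1l* and 0.836 with *Cnksr1*, and without IDA mouse 4 they were 0.75, 0.625 and 0.435.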

How the data were processed

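Cardiac RNA of 20 mice was sequenced as poly-(A) selected libraries with 75-bp paired-end reads. The authors aligned the reads to mm10 with STAR, removed duplicates with SAMtools and made a table of counts per gene with featureCounts (version 1.4.5-p1 in the file header). They deposited these counts without normalization for 23420 genes, with exonic lengths. Strand was not used in counting. The authors left out 1 mouse of each group for contamination without naming it, so all 20 were kept here, and 100 fits left out every pair of mice in turn.

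A gene was tested if 10 or more mice had 1 CPM or more (13590 genes, with 9830 excluded), in R 4.3.3 with edgeR 4.0.16 (TMM factors, quasi-likelihood test, diet as the only factor). Adjusted p-values follow Benjamini and Hochberg over all tested genes, and a gene was called at an adjusted p below 0.05. Log2 CPM used a prior count of 2. The gene length correction subtracted a loess curve (span 0.5, degree 1) of each mouse's deviation on log2 exonic length, entered as offsets, and removes any trend on length, technical or biological. Ratios of 2 genes and correlations were tested by permutation with 100000 resamples. RefSeq promoters were searched with Python 3.11.15. The steps were tested on simulated data.

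Alternatives were other normalizations, filters, DESeq2 1.42.0, limma 3.58.1 (voom), p below 0.01 in both edgeR and DESeq2, corrections for length and GC content (available for 99.3% of tested genes), covariates, the replicate number as a block and leaving out mice. The 4 atrial genes as a covariate, the sets of library numbers and the length correction with the replicate block were added after seeing the data. The members and gene lists were chosen with earlier results of these data known. The text names the 8 genes, their direct partners (*Myh6*, *Actc1*, *Tnni1*, *Tnni3*, *Npr1*, *Npr2*, *Npr3*, *Corin*, *Fhl2*, *Ankrd2*, *Ankrd23*, *Cyr61* and *Rcan2*), in each list the 3 called genes with the largest log2 fold change, and for each member the 3 genes with the most similar pattern. Some of the genes selected are not reported here.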

Additional observations from a re-analysis of the deposited data

Results flagged for a closer look

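IDA mouse 4 stood apart from the other IDA hearts in 6 of the 24 groups of values examined (8 genes and 4 ratios in each diet). The test was Dixon's, in which chance picks out about 1 group in 20. Its value was the highest each time. *Nppb* was at 118.1 CPM in this heart, with the next IDA heart at 97.25 CPM. *Myh7* was at 788.8 CPM (next 421.8 CPM), *Acta1* at 323.5 CPM (next 278.4 CPM) and *Rcan1* at 371.4 CPM (next 290.4 CPM). The log2 ratio of the counts of *Myh7* to those of *Myh6* was -0.6684 (next -1.93), and that of *Acta1* to *Actc1* was 0.05625 (next -0.2911). *Myh6* and *Actc1* were close to the cap of duplicate removal in every heart. The 6 values come from 1 heart and are not independent.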

How the results depend on the processing

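All 18 settings of the fits, the 20 that left out 1 mouse and the 100 that left out 2 gave *Rcan1* as higher, with log2 fold changes between 0.17 and 0.39. The gene length correction gave log2 fold changes of 0.0124 for *Nppa*, -0.0859 for *Nppb*, -0.0874 for *Acta1*, -0.0801 for *Ankrd1* and 0.4774 for *Myh7*, and with the replicate block as well 0.0229, -0.0879, -0.0802, -0.0809 and 0.402. Length and GC correction together gave -0.0703 for *Nppa*, -0.0262 for *Nppb*, -0.2102 for *Acta1* (called lower, adjusted p = 0.0156) and -0.0098 for *Ankrd1*, with 2 marker genes higher and 1 lower. *Myh7* was at 0.2349 there and did not pass (adjusted p = 0.1884), and *Rcan1* was at 0.1736 (adjusted p = 0.01064). Length and GC correction called 6276 of all 13489 tested genes in either direction, and the main analysis 9177 of 13590. With log2 library size as a covariate 2 marker genes were higher, as *Nppa* (0.2326, adjusted p = 0.0602) and *Nppb* (0.2051, adjusted p = 0.0509) no longer passed. *Acta1* and *Ankrd1* were at -0.0157 and -0.0296, and 21 genes of the 7 lists were higher against 32 in the main analysis. Calls among all tested genes also fell with this covariate, to 7920. A p below 0.01 in both packages dropped *Ctgf* (0.3314) and left 20 higher list genes, with 8131 of all tested genes called. The 4 atrial genes as a covariate gave *Ctgf* 0.2517 (adjusted p = 0.0647). In the lower library numbers *Acta1* (0.242) and *Ankrd1* (0.17) were called. In the higher library numbers alone, 1 marker gene was higher and 1 lower, with *Ctgf* at 0.1609, *Nppa* 0.2487, *Nppb* 0.1913, *Fhl1* -0.0476, *Ankrd1* -0.0534, *Acta1* -0.0538 and *Myh7* -0.345. In the same fit 10 list genes were higher, and 5906 of all tested genes were called in either direction. The cause was not tested for any of these.

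Leaving out mice gave 3 to 5 higher and 0 lower marker genes, beside 35.0% higher and 32.5% lower among all tested genes with all mice. The log2 fold change ranged from 0.2694 to 0.4056 for *Nppa*, 0.1531 to 0.2871 for *Nppb*, -0.1376 to 0.161 for *Myh7*, 0.0273 to 0.1494 for *Acta1*, 0.0266 to 0.1129 for *Ankrd1*, 0.2376 to 0.3537 for *Rcan1*, 0.0181 to 0.1353 for *Fhl1* and 0.1742 to 0.402 for *Ctgf*. *Myh7* was at -0.0978 without IDA mouse 4. The 7 lists had 23 to 37 higher and 46 to 50 lower genes. The log2 difference of the ratio of *Acta1* to *Actc1*, with denominators close to the cap, ranged from -0.017 (without IDA mouse 4) to 0.0569 and that of *Myh7* to *Myh6* from -0.1893 to -0.0094. In the 100 fits without a pair of mice, *Nppa*, *Nppb* and *Rcan1* were called in 100, *Ctgf* in 84, *Fhl1* in 3, *Ankrd1* in 2, and *Myh7* and *Acta1* in 0.

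Mice with the same replicate number had correlations of -0.278 to 0.264, over 0.1 in 3 of 10 pairs. Of the 10 control mice, 3 correlated best with the IDA mouse of their own number. Whether the numbers pair the mice was not tested, and the main analysis did not pair them. With the replicate block the count stayed at 4 higher marker genes, with *Nppa* at 0.3444, *Nppb* 0.2433, *Rcan1* 0.3178, *Ctgf* 0.3028 and *Myh7* 0.0178. Among all tested genes 8912 were called with this block. The depth limits statements on *Tnni1* and *Ankrd2*, which had few read pairs per heart.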
